A study of Mus musculus with 2 samples.

Results

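The nuclear receptor superfamily was described in adult mouse kidney through 47 of its genes, among 43346 genes in the tables. Members were taken by gene symbol: every row of the deposited gene tables whose identifier maps to 1 of the 47 symbols was used, and all 47 were found, each as a single row. The study holds 1 group, kidney of C57BL/6J mice at 8 weeks of age with no treatment named, measured in 2 libraries called replicate 1 and replicate 2. The labels describe each as tissue pooled from littermates of both sexes, and give the health state as unknown. By the labels they are biological replicates from separate biosamples under the same donor label, with no record of which animals each pool holds. The spread between the libraries is therefore not known to be that between separate animals, and with no second group the data give levels and the difference between a pair of libraries. Polyadenylated RNA was sequenced, and levels are given in TPM (transcripts scaled to 1 common sum in each library, a level per transcript length).

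Nuclear receptors are transcription factors that share a zinc finger DNA-binding domain and a ligand-binding domain, and many of them change which coregulators they hold when a hormone, lipid or metabolite enters the ligand pocket. Receptors for thyroid hormone, retinoic acid, vitamin D, fatty acids, oxysterols and bile acids bind DNA as heterodimers with a retinoid X receptor (RXR), steroid receptors as homodimers, and several orphan receptors alone or without a known hormone. In the kidney they are known for the control of salt and water handling by aldosterone, of calcium and phosphate by vitamin D, and of fuel use and transport in the proximal tubule.

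Hnf4a was the highest member and its isoforms lay almost wholly on 1 of its promoters, so both are shown. The windows hold 250 bases before and 50 bases after each RefSeq start on GRCm38.p6, plus strand of chromosome 2, at chr2:163546905-163547204 for promoter P1 and chr2:163506607-163506906 for promoter P2. P1 is known as the promoter of adult liver and kidney, and P2 as that of gut and pancreas. Capitals mark GTTAAT, the core of the sites of the HNF1 factors, read on either strand.
Hnf4a P1: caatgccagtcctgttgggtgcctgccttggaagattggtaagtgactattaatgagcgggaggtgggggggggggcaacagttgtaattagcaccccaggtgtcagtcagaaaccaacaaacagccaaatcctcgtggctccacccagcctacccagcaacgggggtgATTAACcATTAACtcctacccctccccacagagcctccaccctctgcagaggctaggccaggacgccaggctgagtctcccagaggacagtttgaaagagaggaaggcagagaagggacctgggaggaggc
Hnf4a P2: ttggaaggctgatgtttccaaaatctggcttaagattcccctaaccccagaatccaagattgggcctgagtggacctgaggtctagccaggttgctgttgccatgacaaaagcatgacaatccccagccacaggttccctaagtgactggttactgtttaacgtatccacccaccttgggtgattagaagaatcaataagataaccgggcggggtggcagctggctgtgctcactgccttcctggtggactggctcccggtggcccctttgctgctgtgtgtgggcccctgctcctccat
The P1 window held 2 matches, side by side and both in the reverse orientation, and the P2 window held 0. Of 32851 promoter windows of this length, 7.10% held this core at least once, as did 6 of the 64 windows of nuclear receptor genes. A match in letters is a description of the window, not evidence of a factor on it.

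The library labelled replicate 1 gave 67252604 rounded expected counts over genes and replicate 2 gave 87330090. Markers of proximal tubule (8 of 8), thick ascending limb (5 of 5), distal convoluted tubule (4 of 4), principal cells (5 of 5) and podocytes (5 of 5) were all detected, where detected means 1 TPM or more in both libraries. Of these kidney markers, Pvalb of the distal convoluted tubule differed by more than 2-fold, with 12.9 TPM in replicate 1 and 35.3 TPM in replicate 2 (log2 ratio of scaled counts -1.60), while the same segment's Slc12a3 was higher in replicate 1, at 511.7 and 247 TPM (0.88). The libraries stood apart in markers of neighbouring tissue: 7 adrenal cortex markers summed to 52.9 TPM in replicate 1 and 0.97 TPM in replicate 2, and none was at 0 in both. The 7 skeletal muscle markers summed to 2.37 TPM in replicate 1 and 730.2 TPM in replicate 2, and the 6 lymphocyte markers to 2.87 and 30.9 TPM. Fat was present in both, with 7 of 8 markers detected and sums of 2032 TPM in replicate 1 and 1351 TPM in replicate 2. The largest part of these sums was 1 gene, Cfd, at 1380 and 709 TPM. Cidec, Adipoq, Plin1 and Lep were also higher in replicate 1. Ucp1 (195.5 and 246 TPM), Cidea (38.8 and 50.7 TPM) and, slightly, Fabp4 (204 and 205 TPM) were higher in replicate 2. In bulk tissue, fewer cells of a type and less RNA per cell cannot be told apart.

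Of the 47 genes, 35 were detected (74.5%), against 57.2% of the 21474 protein-coding genes. A further 11 were below 1 TPM in both libraries, and Nr5a1 was above 1 TPM in replicate 1 only. At 10 TPM or more in both libraries stood 21 members, at 50 TPM or more 10 members, and at 100 TPM or more Hnf4a and Nr2f6. The median member had 6.48 ± 0.71 TPM (SD, n = 2) and the median protein-coding gene 2.80 TPM. Among detected genes the medians were 14.5 TPM for members and 13.3 TPM for protein-coding genes. The 5 highest members held 52.7% of the summed level of the family and the 12 highest 84.4%.

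**Figure D1:**
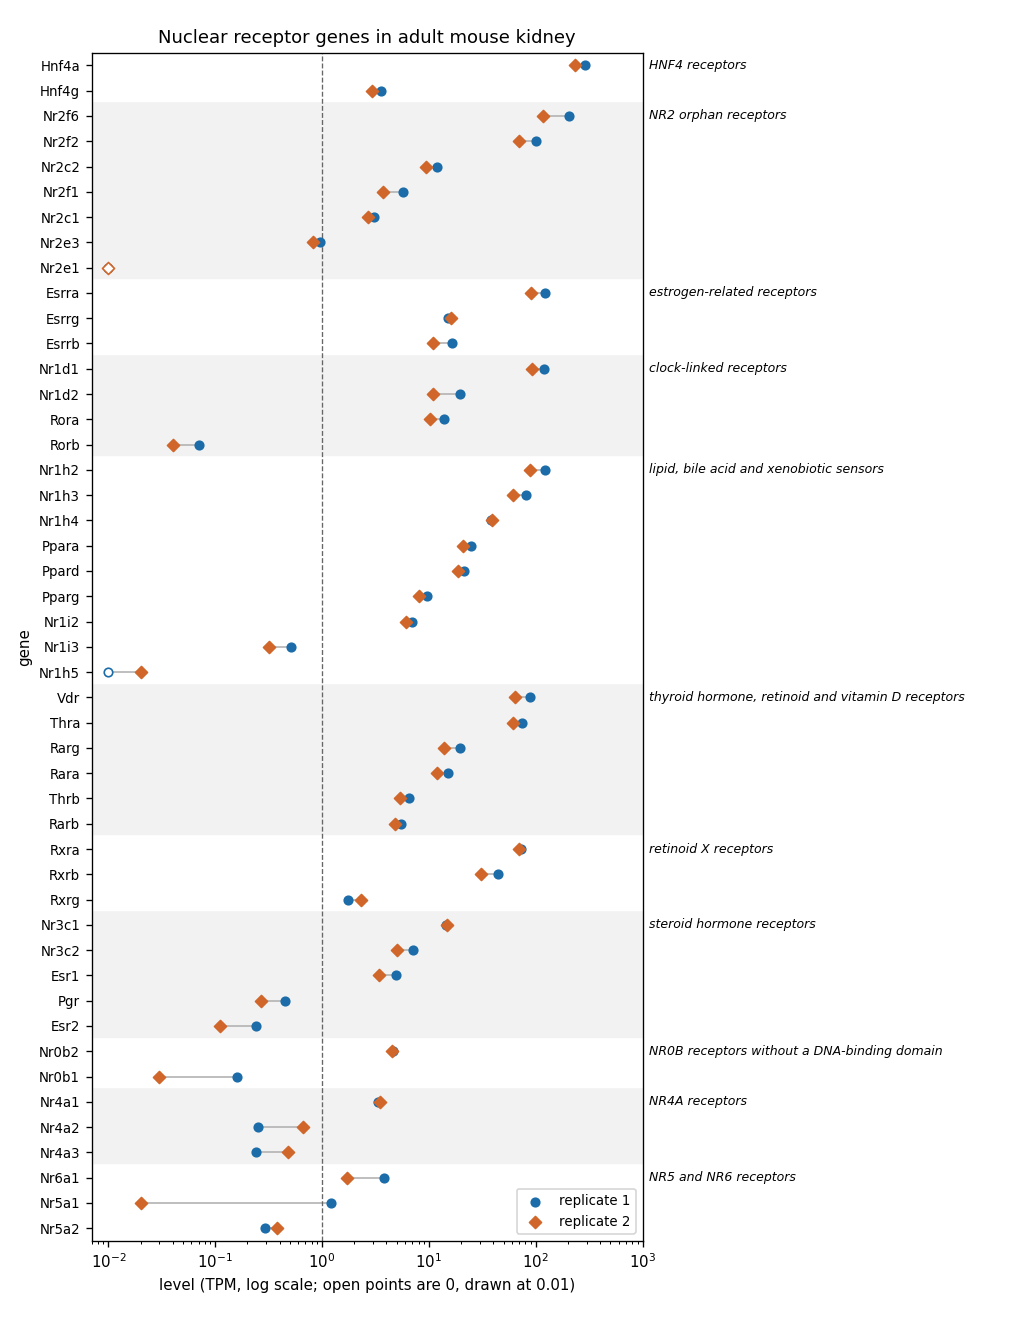
Level of each of the 47 nuclear receptor genes in TPM on a log axis, grouped by role, with circles for replicate 1, diamonds for replicate 2 and a grey line joining them; open points are values of 0, drawn at 0.01, and the dashed line marks 1 TPM. Hnf4a lies at the top of the range (289.8 and 235 TPM), Nr2e1 is at 0 in both libraries, and Nr5a1 has the widest gap between the libraries (1.22 and 0.02 TPM).

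In the order of mean levels, all but 7 of the 46 neighbouring pairs overlapped between the libraries. By this measure the order is one of tiers. It compares ranges over both libraries, and not the genes within each library. Within replicate 1 and replicate 2, Nr2f6 ranked 2 and 2, Esrra 3 and 4, and Nr1d1 5 and 3. The breaks lay between Hnf4a and Nr2f6, Thra and Nr1h4, Rxrb and Ppara, Pparg and Nr1i2, Rxrg and Nr2e3, Nr5a2 and Esr2, and Rorb and Nr1h5. Hnf4a thus formed the top tier alone. The second tier ran over 9 genes (Nr2f6, Esrra, Nr1d1, Nr1h2, Nr2f2, Vdr, Nr1h3, Rxra and Thra) without a break between neighbours. Its first and last genes did not overlap, with Nr2f6 at 204 and 117 TPM and Thra at 74.9 and 61.4 TPM. FPKM, which carries another library-wide factor than TPM, gave 13 breaks.

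Hnf4a is a regulator of the proximal tubule and hepatocyte programmes that binds DNA as a homodimer. It measured 289.8 TPM in replicate 1 and 235 TPM in replicate 2, from 64450 and 72374 counts (GRCm38 chr2:163506808-163572910, plus strand). Only 466 of all genes had a higher mean level, which placed it at the 98.0th percentile of protein-coding genes. Its paralog Hnf4g, known from the gut, measured 3.60 and 2.94 TPM. The ratio of Hnf4a to Hnf4g was 80.5 in replicate 1 and 79.8 in replicate 2, so it was nearly the same in both libraries. All 8 genes listed as HNF4A targets were detected, led by the gluconeogenic enzyme Fbp1 (1298 and 1009.6 TPM) and Pck1 (499 and 577 TPM), and followed by the organic anion transporter Slc22a6 (274 and 234 TPM) and G6pc (248 and 231 TPM).

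Isoform shares of Hnf4a, deposited as the percent of the gene's TPM, lay almost wholly on models that begin at P1. The isoform Hnf4a-202 held 89.25% in replicate 1 and 94.69% in replicate 2, and Hnf4a-201 held 10.42% and 4.96%. These models have the same sequence apart from 1 base at the start and 5 bases at the end, and the deposited SD of their counts was 5439 and 5959 for Hnf4a-201, against counts of 6726 and 3594. The deposited posterior mean moved the share of Hnf4a-202 to 68.36% and 76.91%. The split between them was therefore not measurable here, but their sum was: 99.67% in replicate 1 and 99.65% in replicate 2. The model beginning at P2, Hnf4a-205, had 0.03% and 0%, from 1.18 expected counts in replicate 1 and 0 in replicate 2. It is a partial model of 431 bases, and the tables hold no full-length model that begins at P2, so this value rests on the bases particular to the partial model.

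**Figure D2:**
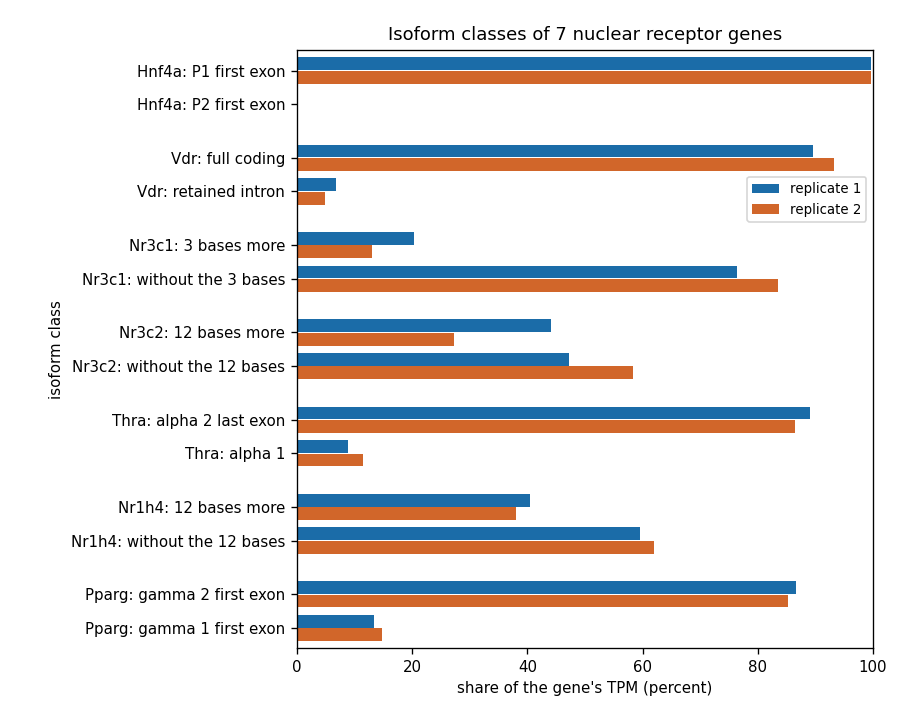
Share of the gene's TPM, in percent, held by classes of isoforms of 7 nuclear receptor genes, with blue bars for replicate 1 and orange bars for replicate 2. Nearly all of Hnf4a is on the P1 first exon (99.67% and 99.65%), the Thra alpha 2 ending exceeds alpha 1 in both libraries, and the class of Nr3c2 with 12 more bases differs most between the libraries (44.02% and 27.23%).

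Among the orphan receptors of the NR2 group, the COUP factor relatives were the high ones. Nr2f6, a repressor also known as EAR2, measured 204 TPM in replicate 1 and 117 TPM in replicate 2, and had the highest ratio of scaled counts of any detected member, at 1.61-fold (95% exact binomial interval 1.57 to 1.64). Its exons overlap those of Ocel1 on the opposite strand over 1622 bases, and Ocel1 itself measured 10.9 and 8.27 TPM. Nr2f2, also known as COUP-TFII and known from stroma, veins and lymphatic vessels, measured 100.6 and 69.1 TPM, and Nr2f1 (COUP-TFI) 5.75 and 3.70 TPM. Nr2f2 exceeded Nr2f1 by 17.5 times in replicate 1 and 18.7 times in replicate 2. Nr2c2 (TR4) measured 11.9 and 9.47 TPM and Nr2c1 (TR2) 3.05 and 2.72 TPM. The photoreceptor gene Nr2e3 was just below the detection threshold, at 0.95 and 0.82 TPM. Nr2e1, the neural stem cell factor TLX, had 0 counts in both libraries, a result compatible with as many as 3 counts per library, or 0.0446 and 0.0344 CPM (counts scaled by the library total).

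The estrogen-related receptors, which bind no estrogen and are known as regulators of mitochondrial genes, were all detected. Esrra led at 123 TPM in replicate 1 and 89.6 TPM in replicate 2. Esrrg followed at 15.0 and 16.0 TPM and Esrrb at 16.6 and 11.04 TPM, and these overlapped. Esrra exceeded Esrrg by 8.19 and 5.59 times. The 6 genes listed as targets were all detected. Among them were the ATP synthase subunit gene Atp5b (5857 and 3027 TPM), Cox5b (990.8 and 1027 TPM), Acadm (284 and 262 TPM) and the citrate synthase gene Cs (184 and 174 TPM). Atp5b differed by a log2 ratio of 0.17 in scaled counts, far less than in TPM.

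The REV-ERB receptors, heme-binding repressors of the clock, and the ROR activators that share their DNA sites were represented by 3 of 4 members. Nr1d1 measured 119.65 TPM in replicate 1 and 92.5 TPM in replicate 2, Nr1d2 19.6 and 10.9 TPM, and Rora 13.9 and 10.25 TPM. Rorb, known from retina and brain, was at 0.07 and 0.04 TPM. Nr1d1 exceeded Rora by 8.58 and 9.02 times, a ratio that changed little between the libraries. Of 5 genes listed as REV-ERB and ROR targets, 4 were detected: Clock (9.40 and 8.42 TPM), Arntl (3.93 and 4.44 TPM), Npas2 (3.40 and 2.96 TPM) and Nfil3 (3.22 and 2.65 TPM). The labels used here give no time of day.

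For Nr1d2, which was chosen for its isoforms after values were seen, the gene level and the counts told different things. Scaled counts differed by a log2 ratio of 0.13 between replicate 1 and replicate 2, while the gene measured 19.6 and 10.9 TPM. The retained-intron model Nr1d2-202 held 67.56% in replicate 1 and 30.29% in replicate 2, and the coding model Nr1d2-201 held 32.44% and 69.71%. The coding model alone measured 6.36 TPM in replicate 1 and 7.61 TPM in replicate 2, so the direction of its difference was opposite to that of the gene. A count on the shorter model adds more TPM, since TPM is a level per length.

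The lipid, bile acid and xenobiotic sensors summed to 306 TPM in replicate 1 and 243 TPM in replicate 2, and 7 of 9 were detected. The liver X receptors, which sense oxysterols, led: Nr1h2 measured 123 and 89.2 TPM and Nr1h3 81.4 and 61.1 TPM. Nr1h2 exceeded Nr1h3 by 1.51 times in replicate 1 and 1.46 times in replicate 2. All 7 listed LXR targets were detected, led by the lipogenic enzymes Fasn (903 and 570 TPM) and Scd1 (729.7 and 561 TPM), then the phospholipid enzyme Lpcat3 (177 and 141.5 TPM) and the lipogenic factor Srebf1 (95 and 59.0 TPM). In scaled counts Fasn differed by a log2 ratio of 0.17, less than in TPM. Fasn and Scd1 are also expressed in fat, whose part in these levels was not tested. Fat markers summed to 2032 TPM in replicate 1 and 1351 TPM in replicate 2, with Cfd as the largest part (1380 and 709 TPM).

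Nr1h4, the bile acid receptor FXR, measured 38.25 TPM in replicate 1 and 39.2 TPM in replicate 2, so it differed little on this scale. Its relative Nr1h5 had 0 and 4 counts. Of 5 listed FXR targets, the organic solute transporter genes Slc51a (62.2 and 55.9 TPM) and Slc51b (10.99 and 10.3 TPM) and the receptor gene Nr0b2 were detected, while the bile salt pump gene Abcb11 and the gut hormone gene Fgf15 were at 0 TPM in both libraries. Liver markers were low: 5 genes summed to 29.8 TPM in replicate 1 and 27.1 TPM in replicate 2.

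Nr1h4 and Nr3c2 each have models that differ by 12 bases at an exon end, shown here because the class shares rest on them. Each pair gives the longer model first, with the 12 bases in capitals and 24 bases of the joined exons on each side, from GENCODE M21 transcripts on GRCm38. The 12 bases lie at chr10:89483372-89483383 (minus strand) for Nr1h4 and chr8:77085667-77085678 (plus strand) for Nr3c2, inside the coding region.
Nr1h4-202: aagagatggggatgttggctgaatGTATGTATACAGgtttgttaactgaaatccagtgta
Nr1h4-201: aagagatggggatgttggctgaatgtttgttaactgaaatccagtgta
Nr3c2-201: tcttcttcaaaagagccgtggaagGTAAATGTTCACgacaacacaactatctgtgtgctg
Nr3c2-203: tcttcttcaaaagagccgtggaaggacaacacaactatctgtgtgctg
In Nr1h4 the addition is known to put a short peptide beside the DNA-binding domain, and in Nr3c2 a like addition inside that domain is known from human and rat. Nr1h4, chosen for its isoforms after values were seen, had the longer form at 40.48% in replicate 1 and 38.03% in replicate 2 and the shorter form at 59.52% and 61.97%, so both were present at like shares in both libraries. The model with the upstream first exon, Nr1h4-203, held 3.32% and 1.80%.

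All 3 PPAR genes, receptors for fatty acids, were detected. Ppara, the regulator of fatty acid oxidation in the proximal tubule, measured 25.0 TPM in replicate 1 and 20.7 TPM in replicate 2, and Ppard 21.4 and 18.7 TPM. Pparg, the regulator of fat cell differentiation, measured 9.67 and 8.07 TPM. Ppara exceeded Pparg by 2.59 and 2.56 times. All 11 listed PPARA targets were detected, led by the medium-chain dehydrogenase Acadm (284 and 262 TPM) and the fatty acid hydroxylases Cyp4a10 (284 and 260.3 TPM) and Cyp4a14 (199 and 219 TPM).

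Pparg is read in the tables through a pair of models, and it was chosen for its isoforms after values were seen. The model of the gamma 2 form, which is known from fat, held 86.63% of the gene's TPM in replicate 1 and 85.22% in replicate 2, from 703 and 804 counts. The gamma 1 model held 13.37% and 14.78%, from 115 and 147 counts. Fat markers, with 7 of 8 detected, included Cfd (1380 and 709 TPM), the thermogenic gene Ucp1 (195.5 and 246 TPM) and Fabp4 (204 and 205 TPM), and their part in the gamma 2 share was not tested. Both models have another length in GENCODE M21 than in the tables, so their starts are not placed here.

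The xenobiotic receptors were low. Nr1i2 (PXR) measured 6.92 TPM in replicate 1 and 6.04 TPM in replicate 2, and Nr1i3 (CAR) 0.51 and 0.32 TPM. The exons of Nr1i3 overlap those of Tomm40l on the opposite strand over 3304 bases, and Tomm40l measured 35.4 and 34.0 TPM. Nr1i3 had 48 and 43 counts, with a deposited SD of the gene count of 0 in both libraries. The part of the overlap in these low counts was not tested. Of 5 listed PXR and CAR targets, Ugt1a1 (19.7 and 21.0 TPM) and the drug pump gene Abcb1a (3.79 and 3.20 TPM) were detected. The cytochrome genes Cyp3a13 (0.16 and 0.20 TPM), Cyp3a11 (0.10 and 0.03 TPM) and Cyp2b10 (0.02 and 0.02 TPM) were not.

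All 6 receptors for vitamin D, thyroid hormone and retinoic acid were detected. Vdr measured 87.5 TPM in replicate 1 and 64.0 TPM in replicate 2, from 17764 and 18650 counts (chr15:97854425-97910630, minus strand). Its main model Vdr-201 held 89.66% and 93.20%, a retained-intron model 6.71% and 4.92%, and Vdr-202 the larger part of the rest at 3.59% and 1.87%. Weighted by counts in place of TPM, Vdr-201 held 98.9%, since the other models are short.

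Vitamin D target genes covered a wide range. The calcium-binding protein genes S100g (307 TPM in replicate 1 and 360.0 TPM in replicate 2) and Calb1 (170.0 and 56.5 TPM) were the highest, and 5 of 6 listed targets were detected. Calb1 differed by a log2 ratio of 0.16 in scaled counts, far less than in TPM. The hydroxylase that inactivates vitamin D hormone, Cyp24a1, measured 21.2 and 19.3 TPM, and the one that makes it, Cyp27b1, 10.4 and 9.48 TPM. Cyp24a1 exceeded Cyp27b1 by 2.04 times in both libraries. The calcium channel gene Trpv6 was below the threshold, at 0.73 and 0.44 TPM.

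Thyroid hormone receptor genes were led by Thra, at 74.9 TPM in replicate 1 and 61.4 TPM in replicate 2, and Thrb measured 6.47 and 5.33 TPM. The ratio of Thra to Thrb was 11.6 in replicate 1 and 11.5 in replicate 2. Thra makes a hormone receptor, alpha 1, and a form called alpha 2 that lacks hormone binding. The models part after base 98764405 of chromosome 11 on the plus strand; in the lines below 24 shared bases, chr11:98764382-98764405, are in lower case and the 24 coding bases that follow in each model are in capitals.
Thra-201 (alpha 2): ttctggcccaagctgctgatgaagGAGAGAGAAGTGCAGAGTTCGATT
Thra-202 (alpha 1): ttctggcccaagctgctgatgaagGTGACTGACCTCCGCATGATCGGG
The models with the alpha 2 last exon held 89.08% in replicate 1 and 86.45% in replicate 2, and alpha 1 held 8.78% and 11.48%. In level, alpha 1 measured 6.58 and 7.05 TPM and thus lay near Thrb. Thra was chosen for its isoforms after values were seen.

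The alpha 2 last exon overlaps the last exon of Nr1d1 on the opposite strand, over 263 bases (chr11:98768157-98768419). The libraries are stranded per the labels, but whether the quantification used strand is not given in the sources used here. Without strand, reads of the overlap cannot be told apart between Nr1d1, at 119.65 and 92.5 TPM, and the alpha 2 form of Thra. In all, exons of 13 members overlap those of another gene in the tables, 11 of them on the opposite strand. For 42 of 47 members, Thra and Nr1d1 among them, the deposited SD of the gene count was 0 in both libraries. The highest was 0.00972% of the count.

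The thyroid target list was detected in full, 5 of 5, led by the lipogenic gene Thrsp (173 and 162 TPM) and malic enzyme Me1 (116 and 102 TPM). The factor gene Klf9 measured 61.65 TPM in replicate 1 and 47.7 TPM in replicate 2, and the deiodinase gene Dio1, whose enzyme activates thyroid hormone, 56.1 and 46.5 TPM. The deiodinases Dio2 (0.29 and 0.38 TPM) and Dio3 (0.33 and 0.34 TPM) were below the threshold.

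The retinoic acid receptors were of middle level: Rarg measured 19.6 and 13.8 TPM, Rara 15.1 and 11.9 TPM, and Rarb, itself a retinoic acid target, 5.43 and 4.82 TPM. Rarb exons overlap Top2b on the opposite strand over 1793 bases, and Top2b measured 3.95 and 6.63 TPM. Of 6 genes listed as retinoic acid targets, 4 were detected, led by the retinaldehyde reductase gene Dhrs3 (262 and 213 TPM), followed by the retinol transporter gene Stra6 (15.0 and 10.2 TPM), with Rarb among the others. The retinoic acid hydroxylases Cyp26a1 (0.21 and 0.13 TPM) and Cyp26b1 (0.41 and 1.18 TPM) were low. Cyp26b1 was the 1 gene of the 112 related genes called between the libraries. Of all tested genes 8.21% were called, and of genes with 50 or more counts in sum 5.53%. Cyp26b1 is thus named for its call. It had 99 counts in replicate 1 and 397 in replicate 2, a log2 ratio of -1.70 (exact binomial, Benjamini-Hochberg adjusted p = 5.15e-30).

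The RXR genes, the common partners, summed to 119 TPM in replicate 1 and 103 TPM in replicate 2. Rxra measured 72.0 and 69.8 TPM, Rxrb 44.7 and 30.7 TPM, and Rxrg, known from muscle and brain, 1.76 and 2.31 TPM. Muscle markers stood higher in replicate 2, and their part in the values of Rxrg, which was not called, was not tested. The 14 genes of receptors that pair with RXR summed to 515 and 405 TPM, which was 4.34 and 3.94 times the RXR sum. These are levels of message, which do not give amounts of protein or dimers.

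Steroid receptor genes were low as a group, at a summed 27.0 TPM in replicate 1 and 23.45 TPM in replicate 2 over 5 members. The glucocorticoid receptor gene Nr3c1 measured 14.4 and 14.7 TPM and the mineralocorticoid receptor gene Nr3c2, which mediates aldosterone action in the distal nephron, 7.04 and 5.02 TPM. Nr3c1 exceeded Nr3c2 by 2.04 times in replicate 1 and 2.92 times in replicate 2. The estrogen receptor gene Esr1 measured 4.94 and 3.38 TPM. The progesterone receptor gene Pgr (0.45 and 0.27 TPM) and Esr2 (0.24 and 0.11 TPM) were below the threshold.

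Cortisol and corticosterone also bind the mineralocorticoid receptor, and Hsd11b2 encodes the enzyme of principal cells that inactivates them. Hsd11b2 measured 258 TPM in replicate 1 and 205 TPM in replicate 2, and Hsd11b1, whose enzyme regenerates the hormones, 95.9 and 89.9 TPM. All 7 listed mineralocorticoid targets were detected, among them the sodium channel subunit genes Scnn1a (69.0 and 55.3 TPM) and Scnn1b (68.9 and 48.4 TPM), and the kinase gene Sgk1 (56.4 and 50.65 TPM). Of 9 glucocorticoid targets 8 were detected, with Klf9 and Sgk1 at the top, then Dusp1 (51.0 and 34.7 TPM) and Tsc22d3 (27.9 and 34.1 TPM), while the liver enzyme gene Tat was at 0.03 and 0 TPM. All 8 chaperone genes of steroid receptors were detected, led by Hspa8 (3172 and 3003 TPM), Hsp90ab1 (284 and 269.9 TPM), Fkbp4 (126 and 110.4 TPM) and Hsp90aa1 (73.2 and 75.6 TPM).

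Isoform shares of the steroid receptors moved with the library and the weight. For Nr3c2, the full-length model Nr3c2-203 held 44.17% in replicate 1 and 54.23% in replicate 2, and Nr3c2-201, the model with the 12 bases, 44.02% and 27.23%. Models without the 12 bases summed to 47.24% and 58.29%. Nr3c2-201 is modelled with coding bases only, and the mean share of the 12-base class was 35.6% by TPM and 25.1% when weighted by counts. Among models that cover the exon end, the 12-base class held 48.2% in replicate 1 and 31.8% in replicate 2, so the libraries differed in it by more than they did in Nr1h4.

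For Nr3c1, Nr3c1-204 held 65.12% in replicate 1 and 73.98% in replicate 2, and Nr3c1-203 11.27% and 9.36%. Models with 3 more bases at the end of an exon in the DNA-binding domain, the form known as gamma with 1 extra amino acid, held 20.32% and 13.10%. Nearly all of this lay on Nr3c1-208, a partial model of 1891 bases, and by counts the class held a mean of 5.49%. The share of the gamma form thus depended on the weight more than on the library.

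Nr0b2 (SHP), a repressor with no DNA-binding domain that FXR induces in liver, measured 4.60 TPM in replicate 1 and 4.52 TPM in replicate 2. The immediate-early receptor gene Nr4a1 measured 3.37 and 3.49 TPM, and its relatives Nr4a2 (0.25 and 0.67 TPM) and Nr4a3 (0.24 and 0.48 TPM) were below the threshold. Nr6a1 (GCNF), a germ cell and embryonic factor, measured 3.84 and 1.70 TPM, and Nr5a2 (LRH-1) 0.29 and 0.38 TPM. The posterior mean TPM of Nr4a2 in replicate 2 was 8.29, against a TPM of 0.67, so its level depended on the estimate.

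Coregulators were present throughout. All 12 coactivators and all 9 corepressors were detected, with medians of 19.2 and 18.2 TPM. Ncoa4 (41.7 and 36.9 TPM), the methyltransferase gene Carm1 (42.0 and 31.3 TPM), Ncoa3 (32.6 and 24.2 TPM) and Ncoa2 (29.4 and 23.7 TPM) led the coactivators. The corepressors were led by Ncor1 (85.6 and 84.2 TPM), Gps2 (58.2 and 48.3 TPM), the deacetylase gene Hdac3 (52.75 and 42.3 TPM) and Sin3a (45.1 and 46.3 TPM). None of the 21 was called between the libraries, against 8.21% of all tested genes and 5.53% of genes with 50 or more counts in sum. Over all 16 lists of coregulators, chaperones, ligand enzymes and targets, 99 of 112 genes were detected, against 57.2% of protein-coding genes.

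**Figure D3:**
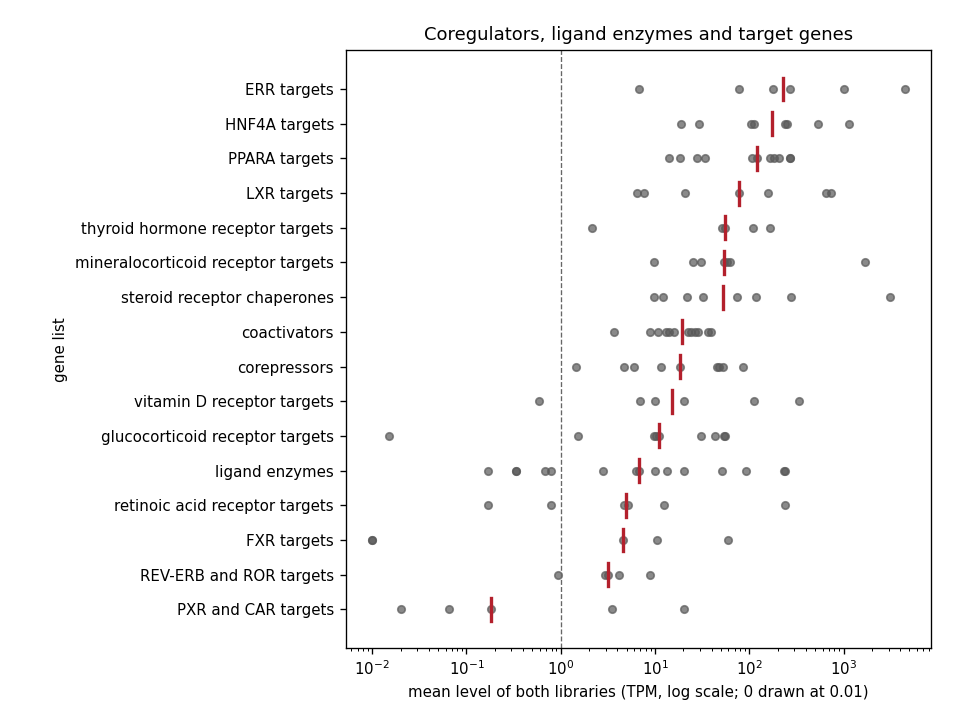
Mean level of both libraries in TPM on a log axis for each gene of the 16 lists related to nuclear receptors, with 1 point per gene, a red bar at the list's median and a dashed line at 1 TPM; a value of 0 is drawn at 0.01. ERR, HNF4A and PPARA target lists have the highest medians (226, 176 and 122 TPM) and the PXR and CAR target list the lowest (0.18 TPM).

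To compare the libraries, each gene's rounded counts were put to an exact binomial test (two-sided, library sizes scaled with TMM), with Benjamini-Hochberg adjustment over 18723 genes with 10 or more counts in sum; a gene was called at an adjusted p below 0.05 and an absolute log2 ratio of 1 or more. This compares the reads of 2 libraries, not conditions. Of 45 members tested, 3 were called (6.67%), against 8.21% of all tested genes. Higher in replicate 1 were 2 members, against 2.59% of genes, and higher in replicate 2 was 1 member, against 5.62% of genes. The called members were all below 1 TPM in at least 1 library, and no detected member was called. The 8.21% covers all tested genes, low ones among them, and the share called over detected genes is not given here. With a minimum of 50 counts in sum, 2 of 44 members were called, against 5.53% of genes.

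Nr5a1 (SF-1), the factor of adrenal and gonadal steroid cells, had 177 counts in replicate 1 and 4 counts in replicate 2, or 1.22 and 0.02 TPM. Its log2 ratio was 5.77 (exact binomial adjusted p = 1.66e-54), with an interval from 20.9-fold to 202-fold. Nr0b1 (DAX1), a repressor of SF-1 in the adrenal cortex, had 14 and 3 counts, a log2 ratio of 2.52 (exact binomial adjusted p = 0.00509) with an interval from 1.60-fold to 31.2-fold. Both were higher in the library with adrenal cortex markers. All 7 of those markers were called higher in replicate 1, among them Cyp21a1 with 2161 and 18 counts and Cyp11b1 with 717 and 8 counts. Their part in the result was not tested.

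Nr4a3 (NOR1) had 29 counts in replicate 1 and 83 counts in replicate 2, a log2 ratio of -1.22 (exact binomial adjusted p = 0.000147). All 7 skeletal muscle markers and all 6 lymphocyte markers were called higher in replicate 2, and their part in this result was not tested. Nr4a2 had 44 and 77 counts and was not called (exact binomial adjusted p = 0.107).

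Among the 35 detected members, log2 ratios of scaled counts ran from -0.59 for Rxrg to 0.68 for Nr2f6, with a median of 0.11, against -0.01 for detected protein-coding genes. The median absolute ratio was 0.16 for members and 0.19 for protein-coding genes. In TPM, 30 of 35 members were higher in replicate 1 (85.7%), against 72.4% of protein-coding genes, and the medians of the log2 TPM ratio were 0.33 and 0.19. The libraries differed in how much of the counts went to the mitochondrial genome, with 6.75% in replicate 1 and 11.7% in replicate 2, and its part in the TPM shift was not tested. By adjusted p alone, with no limit on the ratio, 29 of 45 members (64.4%) passed, against 57.5% of genes. Of these, all but the 3 called members differed by less than 2-fold, which follows from the definition of a call.

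**Figure D4:**
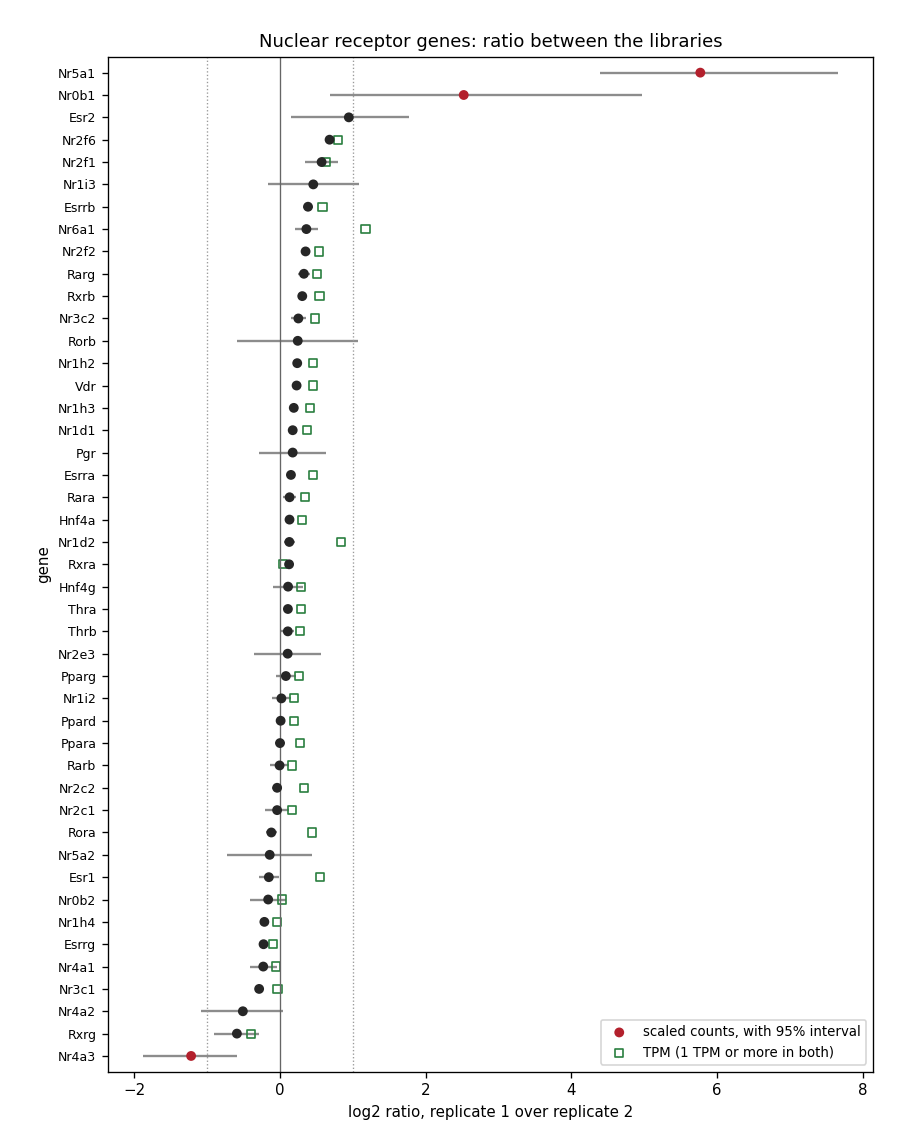
Log2 ratio of replicate 1 over replicate 2 for the 45 tested nuclear receptor genes, with filled points for scaled counts, grey lines for their 95% exact binomial intervals, red points for the 3 called genes and open squares for TPM of genes detected in both libraries; dotted lines mark -1 and 1. Nr5a1 and Nr0b1 lie at 5.77 and 2.52 and Nr4a3 at -1.22, and for Nr6a1, Nr1d2, Esr1 and Rora the square lies well to the right of the point.

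Lengths and isoforms moved beside the TPM differences. The effective length, an average over isoforms, changed more than 1.2-fold between libraries for 4 detected members (Nr6a1, Nr1d2, Esr1 and Rora; 11.4%), against 6.33% of detected protein-coding genes. Of 17 detected members with a share above 0 on models not typed as protein-coding, 15 had a larger share on those models in replicate 1 (88.2%), against 62.2% of such protein-coding genes. The share was 51.98% in replicate 1 and 18.77% in replicate 2 for Nr6a1, 53.34% and 32.72% for Esr1, and 31.07% and 6.94% for Nr2c2. Across the 31 detected members with more than 1 model, the largest isoform held a median of 78.2%, against 69.9% over protein-coding genes, and its share moved by over 10 points between libraries for 9 members (29.0%), against 24.7%. Rora was split between Rora-202 (47.34% and 40.48%), the longer Rora-201 (19.40% and 31.29%) and the decay-typed Rora-206 (24.47% and 21.56%).

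Promoters of the family were read for motifs of nuclear receptors and for the E-box, the site of clock factors. RefSeq windows were found for 43 of the 47 genes, 64 windows in all. The receptor core site AGGTCA, on either strand, was in 12 windows (18.75%), against 16.3% of all 32851 windows. A direct repeat of AGGTCA with 1 base between the copies, on either strand, was in 0 of the 64 and 0.0396% of all, and the E-box CACGTG, which reads the same on both strands, in 6 (9.375%) and 7.15%. The share of AGGTCA in the family was thus 18.75% and near that of all promoters.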

How the data were processed

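Members and gene lists were chosen with earlier results of these data known. Per text records among the deposited files, annotation M4 on build mm10 was quantified. Aligner, quantification program and use of strand: not given in the sources used here. Expected counts deposited by the authors need not be whole and were rounded for tests. Per the file headers, the tables hold TPM and FPKM, posterior mean values, and the SD of each estimated count, a deposited signal of the quantification. The deposited transcript tables give isoform shares in percent. Gene symbols were matched for 42462 of 43346 identifiers, and types and positions came from GENCODE M21. The labels name reads of 76 nt and no molecular identifiers, so intervals (95%, exact binomial) and the limit of 3 counts cover counting error only. Rows without a mouse Ensembl identifier, such as spike-ins, were left out, at 1.59% of counts in replicate 1 and 2.29% in replicate 2.

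Scaling used edgeR 4.0.16 in R 4.3.3, with trimmed mean of M values (TMM) factors of 1.03 and 0.974, and DESeq2 1.42.0 size factors as an alternative. With 1 group and no residual replicates for a condition, the test was a two-sided exact binomial per gene (scipy 1.17.1). Ratios with a 0 used a prior count of 0.5. The test was tried on simulated counts that, apart from set changes, varied by counting error only. That trial cannot show how it behaves where libraries vary by more than counting error. SD is over 2 libraries. All 47 members are named; of each related list the 4 highest by mean TPM, and any called; other names were chosen after their values were seen. Alternatives changed the unit, threshold, scaling, filter, isoform weight or the library used. Junction and contig tables on mm9 were not used here. Single values of some listed genes are not reported here.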

Additional observations from a re-analysis of the deposited data

How the results depend on the processing

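The number of detected members stayed between 35 and 36 with FPKM, posterior mean TPM, a threshold of 0.5 TPM, 1 CPM or either library alone, and was 33 at 2 TPM. The count of called members was 3 with DESeq2 size factors and with posterior mean counts, 4 (with Esr2) with library totals, and 2 with a minimum of 50 counts, where Nr0b1 was not tested. With no limit on the ratio 29 were called, and by a log2 ratio of TPM + 1 with no test only Nr5a1, which makes 1. The 3 called members kept their direction wherever they were tested. The median member was 5.22 in FPKM, and 14.5 TPM over detected members only. FPKM gave 13 breaks in the order, against 7. The largest isoform of Hnf4a held 72.6% by the posterior mean, against 92.0%. By counts in place of TPM, the largest isoform held 98.9% for Vdr, 81.9% for Nr3c1 and 68.5% for Nr3c2, since short models weigh less. Of 47 member levels, 42 stayed within the spread between libraries with posterior mean TPM. Alternatives for the order of members, the related lists, the isoform classes and single levels were chosen after seeing the data. No paired analysis was possible because the study holds 1 group. The labels call the libraries biological replicates but do not say which animals each pool holds, so their spread is not known to be that between separate animals.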
